A study of Homo sapiens with 6 samples.

Results

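The AP-1 and immediate early genes described here are 10 genes chosen by name, FOS, FOSB, FOSL2, JUN, JUNB, JUND, EGR1, ATF3, IER2 and IER3, out of 59565 loci in a table of RNA-seq counts. Each symbol matched 1 Ensembl gene of GENCODE 29, and all 10 passed the count filter that left 19029 genes for testing. The libraries came from C4-2, a human prostate cancer cell line derived from LNCaP, in 2 groups of 3. One group is labelled C4-2 parental and the other C4-2 Enz-R, a line of the same cells resistant to enzalutamide, a drug used against prostate cancer. Whether Enz-R is a single clone, whether enzalutamide was in its medium at harvest, how long after a change of medium the cells were collected, and whether the libraries of a group came from separate cultures are points on which the labels are silent. P-values thus reflect the spread among the libraries as sequenced, part of which may be technical.

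AP-1 is a dimeric transcription factor. Proteins of the Jun family can pair with each other or with proteins of the Fos family, while Fos proteins need a Jun partner, and the dimer binds a short palindromic DNA element through a basic region and a leucine zipper. Immediate early genes are switched on within minutes of a growth factor, stress or serum signal without new protein synthesis, through factors such as SRF, ELK1 and CREB1 that are already present and are reached by MAP kinases. Their transcripts are mostly short-lived, so their level at harvest follows recent signalling.

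Transcripts of 8 of the 10 genes were higher in Enz-R than in parental cells, 1 was lower and 1 was not called. EGR1, FOSB, FOS, IER2, ATF3, JUND and JUNB each rose by more than 2-fold, JUN rose by 1.33-fold, FOSL2 fell by 1.44-fold, and IER3 was near the limit of detection in both groups. Calls were made with the quasi-likelihood test of edgeR at a Benjamini-Hochberg adjusted p under 0.05 over all tested genes. By that rule 64.8% of all tested genes were called, 32.4% higher and 32.3% lower, against 9 of the 10 members. Calls of at least 2-fold were made upward in 7 of the 10 members and in 11.0% of tested genes, and downward in 0 members and in 8.66% of tested genes. The median log2 fold change of Enz-R over parental was 1.17 over the 10 members and 0.01 over all tested genes. Each library of the higher group lay above each library of the lower group for the 9 called members, 8 of them higher in Enz-R, where 34.2% of tested genes had that pattern, and 1 lower, where 34.7% had it. Levels below are CPM (counts scaled to a common library size) with library totals scaled by TMM factors, given as mean ± SD over the 3 libraries of a group, and fold changes are log2 values of the fit ± SE.

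**Figure D1:**
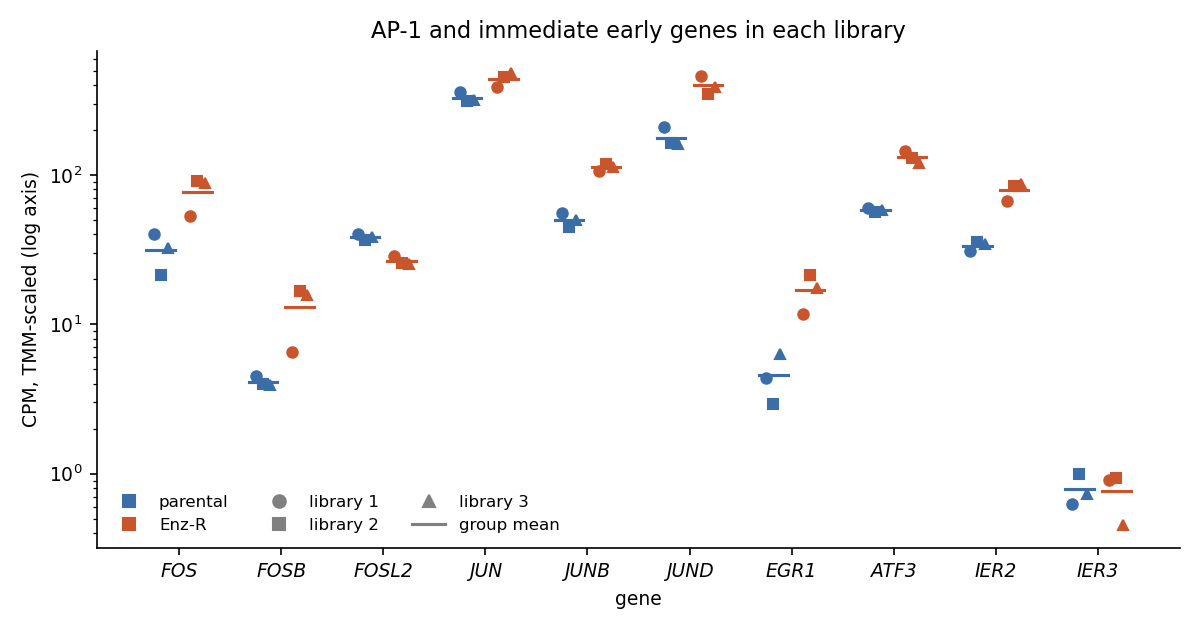
Level in CPM (log axis) of the 10 genes in each of the 6 libraries, parental in blue and Enz-R in orange, with a symbol for the library number and a line at the group mean. The 2 groups do not overlap for 9 genes, FOSL2 is the only one of these with Enz-R below parental, and the IER3 points overlap near 1 CPM.

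Library totals ran from 15673404 to 28247038 counts, the deepest library of each group being library 1. The luminal prostate markers KLK2, KLK3, TMPRSS2, FOLH1, HOXB13, KRT8, KRT18, FOXA1 and ACP3 were detected in both groups but differed between them, with KRT8 and KRT18 higher in Enz-R, FOXA1 not called and the other 6 lower. ACP3 fell from 22.3 ± 1.99 to 2.81 ± 0.20 CPM, TMPRSS2 from 1405 ± 54.9 to 331 ± 15.7 CPM and KLK3 from 4759 ± 249 to 2528 ± 64.0 CPM. Of 12 markers of other cell types, 4 passed the count filter. Below it, the leukocyte genes PTPRC, CD3E and CD14 and the endothelial gene PECAM1 had at most 17 counts summed over a group. Of the 4 tested, 3 were called lower in Enz-R and 0 higher, where 32.3% of all tested genes were lower and 32.4% higher. The basal gene TP63 was tested but not called, at 3.51 ± 0.54 and 3.17 ± 0.07 CPM. The endothelial gene VWF fell from 5.20 ± 0.91 to 0.650 ± 0.116 CPM, the basal keratin gene KRT14, chosen after its values were seen, had 47 counts in parental and 0 in Enz-R cells, and COL1A1 was called lower with all libraries but not without Enz-R library 1 (edgeR adjusted p = 0.0514) or 2 (edgeR adjusted p = 0.0513). The summed level of 12 markers of other cell types was 64.7 to 65.9 CPM in the parental and 48.2 to 56.4 CPM in the Enz-R libraries, most of it from COL1A1. The part of these marker differences in the changes of the members was not tested. Mitochondrially encoded genes took 8.78% to 11.3% of parental and 14.5% to 15.5% of Enz-R counts. With those genes left out, the count of members called was again 8 higher and 1 lower. Over all 19064 genes then tested, 6156 were called higher and 6191 lower.

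The Fos family supplies the partner that gives AP-1 its strongest activating dimers. FOS (ENSG00000170345, chromosome 14, 75278774 to 75282230 on GRCh38) is the founding immediate early gene. It stood at 40.1, 21.3 and 32.4 CPM in parental libraries 1, 2 and 3, and at 52.8, 91.0 and 88.2 CPM in Enz-R libraries 1, 2 and 3. The groups did not overlap, but Enz-R library 1 lay closer to the highest parental library than to the other two Enz-R libraries. Group means were 31.3 ± 9.46 and 77.3 ± 21.3 CPM, and the fitted change was 1.29 ± 0.20 on the log2 scale (edgeR adjusted p = 3.61e-05).

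FOSB (ENSG00000125740, chromosome 19, 45467995 to 45475179), a close relative of FOS with a similar induction, was scarce in parental cells. Parental libraries 1, 2 and 3 gave 4.48, 4.00 and 3.95 CPM, against 6.57, 16.7 and 15.8 CPM for Enz-R. The parental values were tight, whereas the Enz-R values were spread over more than 2-fold with library 1 the lowest. The log2 fold change was 1.62 ± 0.26 (edgeR adjusted p = 6.06e-05).

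FOSL2 (ENSG00000075426, chromosome 2, 28392448 to 28417312) encodes a Fos-related protein that lacks the strong activation domain of FOS and persists longer after a signal. Its level was 40.2, 36.5 and 38.2 CPM in parental cells but 28.9, 25.6 and 25.4 CPM in Enz-R cells. Every Enz-R library was below every parental one, and the log2 fold change was -0.52 ± 0.08 (edgeR adjusted p = 2.02e-05). FOSL1, the remaining Fos gene and not among the 10, stood at 0.829 ± 0.126 and 0.998 ± 0.200 CPM and was not called (log2 fold change 0.25 ± 0.29, edgeR adjusted p = 0.472).

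The 3 Jun genes, each without introns, were the most abundant members per kilobase of exon. JUN (ENSG00000177606, chromosome 1, 58780788 to 58784327) had 361, 312 and 316 CPM in parental cells, against 391, 451 and 479 CPM in Enz-R cells. Its groups were separated only by the gap between parental library 1 and Enz-R library 1. The log2 fold change of 0.42 ± 0.08 (edgeR adjusted p = 0.000353) lay above that of 71.6% of tested genes, the lowest such share among the members that rose.

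JUNB (ENSG00000171223, chromosome 19, 12791496 to 12793315) encodes a weaker activator that can counteract JUN. It rose from 55.8, 45.0 and 49.98 CPM in the parental libraries to 106, 118 and 113 CPM in the Enz-R libraries. Values within each group were close and those of the 2 groups far apart, with a log2 fold change of 1.16 ± 0.08 (edgeR adjusted p = 5.37e-09). Of its 1820 exon bases, 259 are shared with an exon of HOOK2 on the opposite strand. HOOK2, with 168 ± 9.02 and 275 ± 29.1 CPM, was also higher in Enz-R (0.71 ± 0.08). Without strand in the counting, reads of that stretch cannot be told apart, and their part in the value of JUNB was not tested.

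JUND (ENSG00000130522, chromosome 19, 18279760 to 18281622) encodes the Jun protein that is usually present in resting cells. The parental libraries held 208, 164 and 162 CPM, the Enz-R libraries 461, 349 and 387 CPM. Library 1 was the highest of each group, and the lowest Enz-R library was still 1.68-fold above the highest parental one. The log2 fold change was 1.16 ± 0.11 (edgeR adjusted p = 1.50e-07).

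**Figure D2:**
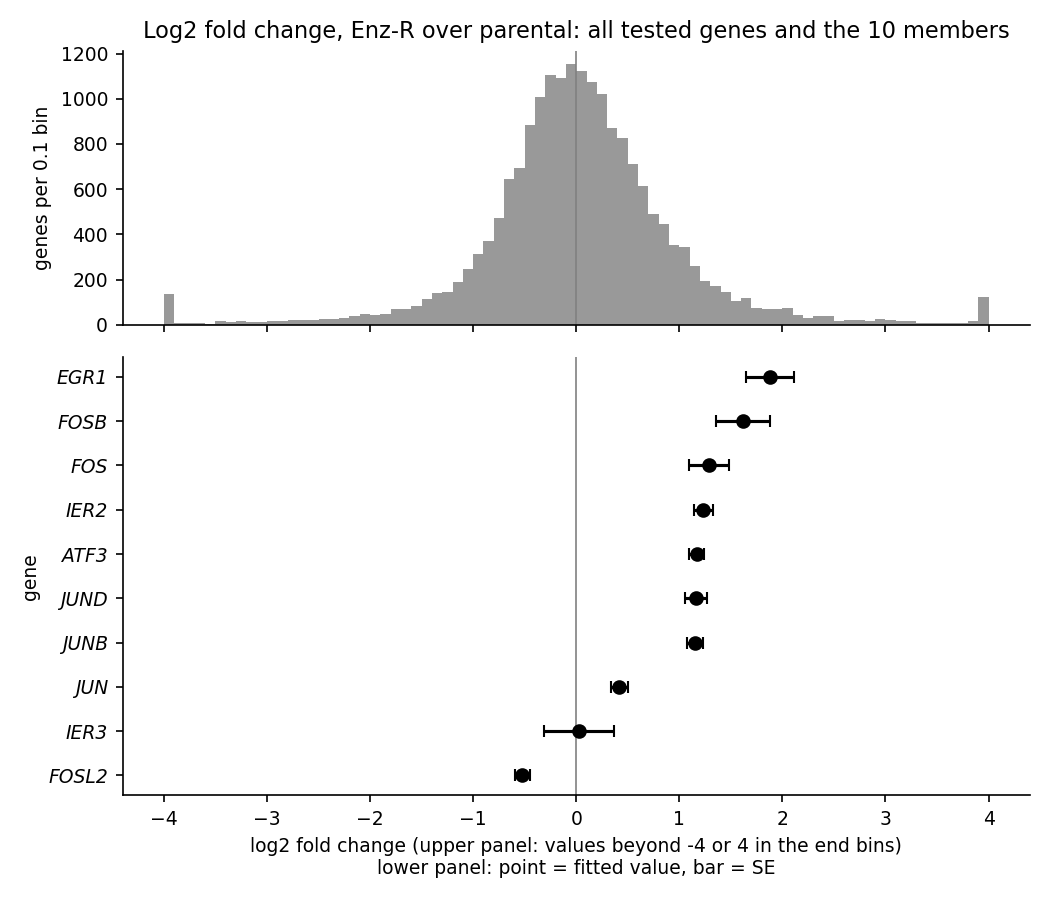
Upper panel, number of tested genes per 0.1 of log2 fold change (Enz-R over parental), with values beyond the axis collected in the end bins. Lower panel, fitted log2 fold change of each member with its SE as a bar. Of the 10 points, 7 lie above 1, JUN at 0.42, IER3 at 0.02 and FOSL2 at -0.52.

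Per length, the make-up of both families differed between the lines. Summed over FOS, FOSB, FOSL1 and FOSL2, the Fos family had 16.2 ± 3.23 CPM per kilobase of exon in parental and 30.5 ± 7.43 in Enz-R cells. FOS held 58.8% ± 6.67 of that sum in parental and 77.9% ± 3.08 in Enz-R cells, and FOSL2 held 33.8% ± 5.48 and 13.0% ± 4.71. The share of FOSB was 4.70% ± 0.80 and 7.40% ± 1.74, with overlapping groups, and that of FOSL1 2.78% ± 0.58 and 1.75% ± 0.15. The Jun family summed to 216 ± 24.4 CPM per kilobase in parental and 400.2 ± 18.8 in Enz-R cells, an excess over the Fos family in every library. JUN and JUND took similar shares of it in parental cells, 43.2% ± 1.24 and 44.1% ± 1.58. In Enz-R cells the share of JUN was 31.2% ± 4.01, that of JUND 53.4% ± 5.34 and that of JUNB went from 12.8% ± 0.63 to 15.5% ± 1.51. For the shares of FOS, FOSL1, FOSL2, JUN, JUNB and JUND and for both family sums the groups did not overlap. For each, the two-sided exact permutation test gave p = 0.1. That is the smallest that 3 libraries against 3 allow, so none can pass 0.05. Shares within a family depend on one another, and that of JUN was lower in Enz-R although its own level was higher. The shares use the joined length of all exons, and with the longest transcript instead the share of FOS was 65.6% and 81.4% and that of FOSL2 26.9% and 9.67%. Levels of RNA do not give the levels of the proteins or of the dimers.

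**Figure D3:**
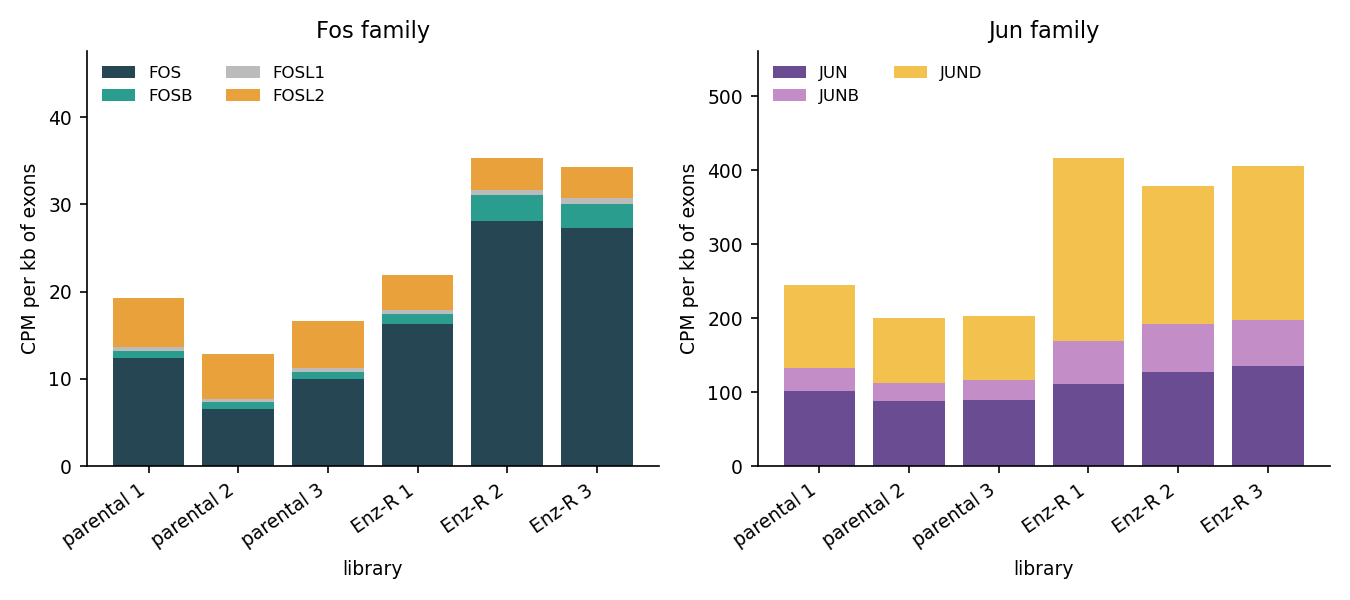
CPM per kilobase of exon in each library, stacked by gene, for the Fos family (left) and the Jun family (right). The Fos sum is 12.8 to 19.2 in the parental and 21.9 to 35.3 in the Enz-R libraries, and the Jun sum 201 to 244 and 379 to 416, with FOS and JUND the larger blocks of the Enz-R bars.

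Outside the Fos and Jun families, EGR1 (ENSG00000120738, chromosome 5, 138465490 to 138469315), a zinc finger transcription factor of the early growth response family, had the largest fold change of the 10. It stood at 4.34, 2.95 and 6.38 CPM in the parental libraries, from 125, 59 and 131 counts. In the Enz-R libraries it stood at 11.7, 21.3 and 17.6 CPM, from 256, 363 and 273 counts. The lowest Enz-R value was 1.83-fold above the highest parental one, and the log2 fold change was 1.88 ± 0.23 (edgeR adjusted p = 4.30e-06), above that of 96.7% of tested genes. NAB1 and NAB2, corepressors that bind EGR proteins, were both called higher in Enz-R, where 32.4% of all tested genes were. Their log2 fold changes were 1.02 ± 0.11 and 0.39 ± 0.08 (edgeR adjusted p = 9.35e-07 and 0.000481). NAB1 went from 12.8 ± 1.24 to 26.1 ± 3.56 CPM and NAB2 from 17.4 ± 0.17 to 22.9 ± 0.69 CPM.

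ATF3 (ENSG00000162772, chromosome 1, 212565334 to 212620777) encodes a stress-induced bZIP protein that pairs with Jun proteins. Parental cells gave 60.0, 56.8 and 58.6 CPM, Enz-R cells 145, 129 and 120 CPM. Its parental spread was the smallest of the 10, a coefficient of variation of 2.80%, and the log2 fold change was 1.17 ± 0.07 (edgeR adjusted p = 2.24e-09). IER2 (ENSG00000160888, chromosome 19, 13150415 to 13154908), an immediate early gene for a nuclear protein, went from 31.1, 35.6 and 34.4 CPM to 66.9, 83.9 and 87.1 CPM in the Enz-R libraries. The 2 groups were well apart, with a log2 fold change of 1.23 ± 0.09 (edgeR adjusted p = 1.90e-08). An antisense gene shares 946 of the 3072 exon bases of IER2 and had 0 counts in all libraries. Its exons, 946 bases in all, lie wholly within those of IER2. Without strand in the counting, its reads cannot be told from those of IER2, so the 0 counts do not measure it. Its part in the value of IER2 was not tested.

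IER3 (ENSG00000137331, chromosome 6, 30743199 to 30744554), an early response gene linked to cell survival, was covered by 18, 20 and 15 counts in parental cells, against 20, 16 and 7 in Enz-R cells. These correspond to 0.785 ± 0.193 and 0.768 ± 0.274 CPM, with overlapping groups. The log2 fold change of 0.02 ± 0.34 (edgeR adjusted p = 0.955) leaves the direction unknown at this depth. The antisense gene IER3-AS1 overlaps 359 of its 1356 exon bases and stood at 0.862 ± 0.321 and 1.06 ± 0.087 CPM. How reads of the shared stretch were counted is not known, and their part in the low level of IER3 was not tested.

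On the scale of CPM per kilobase of exon, the order of levels in parental cells was JUND (95.5 ± 14.1), JUN (93.1 ± 7.70), JUNB (27.6 ± 2.95), ATF3 (14.5 ± 0.41), IER2 (11.0 ± 0.76), FOS (9.66 ± 2.92), FOSL2 (5.35 ± 0.26), EGR1 (1.45 ± 0.55), FOSB (0.746 ± 0.053) and IER3 (0.579 ± 0.142). The library values of JUND and JUN, of IER2 and FOS, and of FOSB and IER3 overlapped, so these neighbours are not ordered beyond their spread. In Enz-R cells JUND (214 ± 30.5) lay above JUN (124 ± 12.7) in every library, and EGR1 (5.38 ± 1.55) stood before FOSL2 (3.72 ± 0.27) with overlapping values. The other places in the order were the same. Lengths are those of all annotated exons joined, which for FOS, FOSB and ATF3 exceed the longest single transcript most and so lower their values. Per kilobase of the longest transcript, the parental mean of FOS (14.5 ± 4.38) stood above that of IER2 (11.5 ± 0.80) with overlapping values. On the same scale ATF3 (27.8 ± 0.78) was level with JUNB in parental cells.

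The promoter bases of 5 members that rose are shown as examples of letters that the known upstream factors of immediate early genes recognise. Such letters also lie before the starts of JUN and IER2, which rose, and of FOSL2, which fell. The bases shown are RefSeq sequences on GRCh38.p14, 5′ to 3′ on the strand of the gene. They run from 250 bases before the RefSeq start and end before the first annotated exon base. They lie at chr14:75278578-75278773 (FOS, plus strand), chr19:45467746-45467994 (FOSB, plus), chr19:12791236-12791485 (JUNB, plus), chr19:18281623-18281872 (JUND, minus) and chr5:138465229-138465478 (EGR1, plus). Capitals mark the core of the cyclic AMP response element, TGACG on either strand, and the CArG box bound by SRF.
FOS: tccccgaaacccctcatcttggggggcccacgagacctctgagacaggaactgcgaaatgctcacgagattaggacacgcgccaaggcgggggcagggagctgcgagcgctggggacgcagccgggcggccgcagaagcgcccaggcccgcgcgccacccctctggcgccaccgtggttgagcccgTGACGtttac
FOSB: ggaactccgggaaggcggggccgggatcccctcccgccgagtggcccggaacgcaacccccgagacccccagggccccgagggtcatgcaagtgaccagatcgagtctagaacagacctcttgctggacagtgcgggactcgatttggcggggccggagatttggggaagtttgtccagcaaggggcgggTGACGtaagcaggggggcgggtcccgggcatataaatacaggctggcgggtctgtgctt
JUNB: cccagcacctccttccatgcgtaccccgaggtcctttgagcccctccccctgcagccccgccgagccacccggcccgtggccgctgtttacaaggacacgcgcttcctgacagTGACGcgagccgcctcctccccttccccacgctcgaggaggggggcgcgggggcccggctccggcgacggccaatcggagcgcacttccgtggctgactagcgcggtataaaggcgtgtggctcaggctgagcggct
JUND: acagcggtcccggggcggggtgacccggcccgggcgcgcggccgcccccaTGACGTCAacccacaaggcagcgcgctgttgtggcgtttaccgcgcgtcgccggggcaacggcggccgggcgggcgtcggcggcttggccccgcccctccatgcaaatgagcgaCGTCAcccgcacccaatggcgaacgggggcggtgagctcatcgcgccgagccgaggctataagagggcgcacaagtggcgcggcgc
EGR1: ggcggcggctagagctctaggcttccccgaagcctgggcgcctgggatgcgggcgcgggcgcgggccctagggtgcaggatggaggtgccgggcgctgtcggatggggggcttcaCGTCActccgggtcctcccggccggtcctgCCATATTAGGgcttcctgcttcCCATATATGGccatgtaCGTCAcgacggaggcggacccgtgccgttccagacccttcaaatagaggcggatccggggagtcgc
EGR1 holds 2 CArG boxes, at -105 to -96 and -83 to -74 from the start, and 2 TGACG cores. JUND holds the whole element TGACGTCA at -200 to -193, in which cores on both strands overlap, and a further core at -86 to -82. FOS has a core at -64 to -60, FOSB at -60 to -56 and JUNB at -137 to -133.

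Over the 250 bases before the start, 9 of the 10 members had an entry among 34943 promoter windows. TGACG on either strand was in 8 of the 9, FOSL2 included, and in 21.2% of all windows. The CArG box was in 1 of 9 and in 1.16% of all windows, TGACGTCA in 1 of 9 and 1.63%, and the AP-1 element TGANTCA in 0 of 9 and 6.59%. The windows of the members (10, as ATF3 has 2) had a median GC content of 67.0%, against 58.0% over all windows, and TGACG itself contains CG, and the part of base composition in these shares was not tested. The 8 members with the core are FOSL2, which fell, and 7 of those that rose, while ATF3, which rose, has none in its windows. These are matches of letters in a short window and not measured binding.

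Calls among companion immediate early genes went both ways. Of 27 listed genes 22 were tested, 12 rose, 2 fell and 8 were not called, with a median log2 fold change of 0.30, where 32.4% of all tested genes were higher and 32.3% lower. Of these 22 genes, 7 rose by at least 2-fold, where 11.0% of all tested genes were called with such a rise. ARC, named for its role at synapses, rose from 3.97 ± 0.50 to 13.9 ± 2.16 CPM (1.80 ± 0.15, edgeR adjusted p = 4.94e-08). IER5L rose by 1.63 ± 0.12 and its relative IER5 by 1.56 ± 0.07, from 14.8 ± 0.71 to 43.8 ± 1.71 CPM. The nuclear receptor gene NR4A1 fell by 0.27 ± 0.08 on the log2 scale and the survival gene MCL1 by 0.33 ± 0.06. NR4A2, a relative of NR4A1 chosen after its value was seen, rose from 0.750 ± 0.158 to 3.08 ± 0.40 CPM (2.02 ± 0.24, edgeR adjusted p = 2.70e-06). DUSP1, the phosphatase that shuts off MAP kinases and is itself immediate early, stood at 83.4 ± 4.60 and 88.8 ± 15.4 CPM (0.09 ± 0.10, edgeR adjusted p = 0.444), and EGR2 at 2.29 ± 0.81 and 2.12 ± 0.29 CPM (-0.07 ± 0.27, edgeR adjusted p = 0.838). Both were chosen after their values were seen.

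Among the other bZIP genes whose products pair with or compete with AP-1, calls went both ways. Of 16 listed genes 14 were tested, 2 were higher, 4 lower and 8 not called, with a median of -0.06, where 32.4% of all tested genes were higher and 32.3% lower. CREM, a cyclic AMP response element modulator, rose by 0.71 ± 0.09, from 10.9 ± 0.36 to 17.8 ± 0.59 CPM. BATF3, chosen after its value was seen, was the other one called higher, at under 1 CPM in both groups. CREB1, which binds the same element, fell from 71.2 ± 2.97 to 43.5 ± 1.26 CPM (-0.71 ± 0.06, edgeR adjusted p = 1.24e-07). The small Maf gene MAFK fell by 0.51 ± 0.06 and ATF4 by 0.25 ± 0.07 on the log2 scale, a call that ATF4 lost without Enz-R library 2 (edgeR adjusted p = 0.0553).

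**Figure D4:**
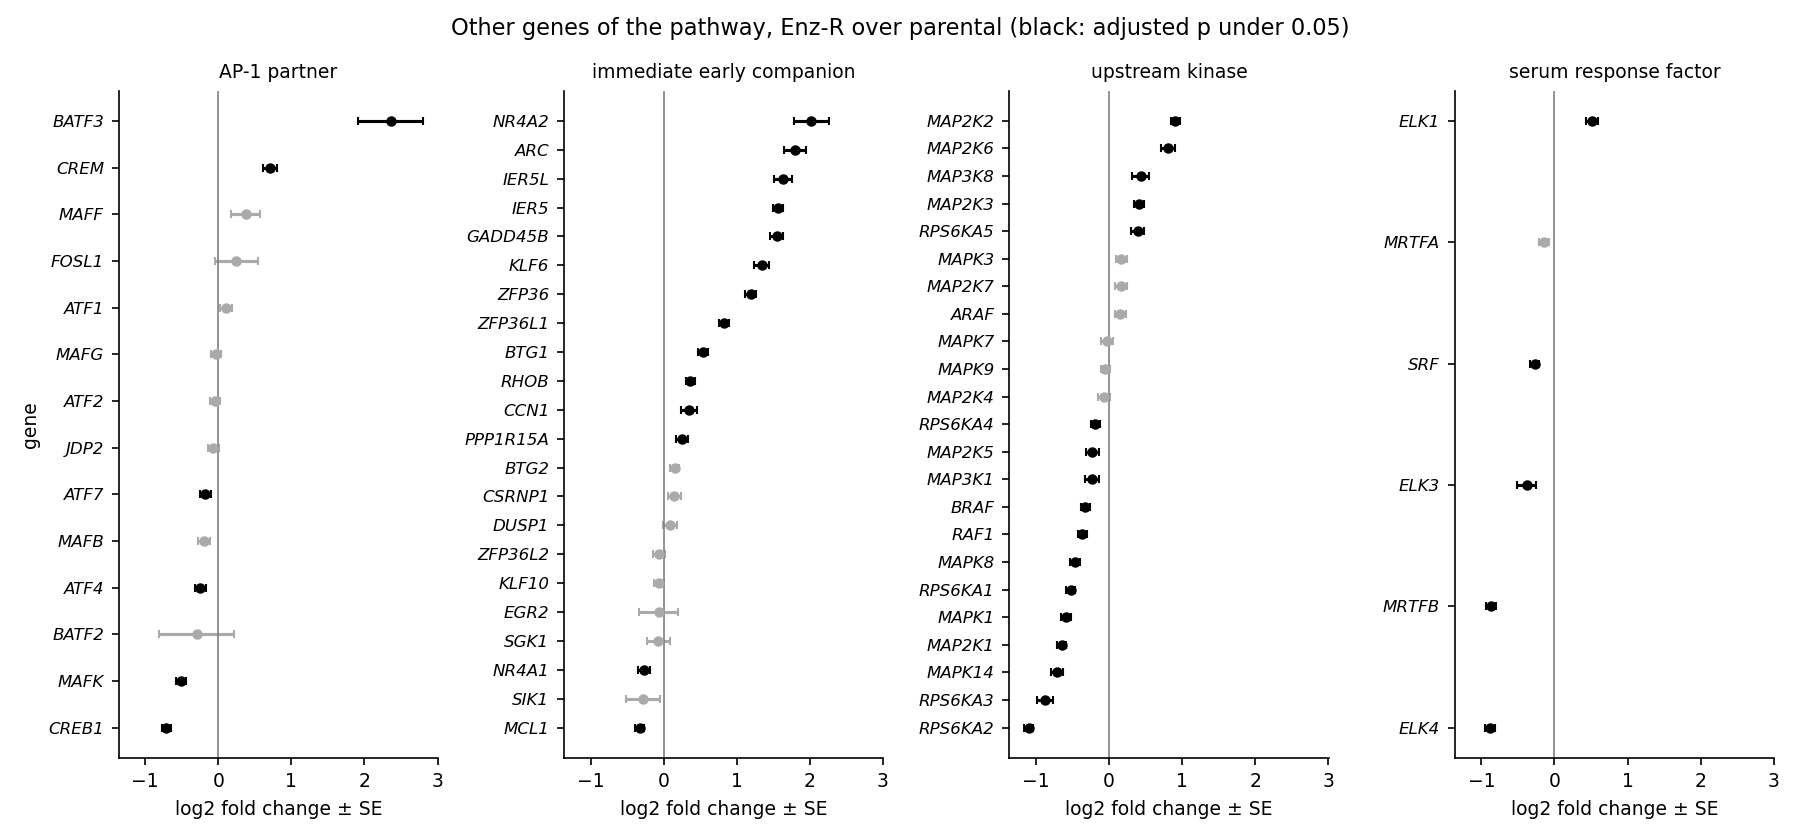
Log2 fold change of Enz-R over parental with SE for the tested genes of 4 lists, black where the adjusted p was under 0.05 and grey otherwise. Among companion immediate early genes 12 black points lie right of 0 and 2 left, among AP-1 partners 2 and 4, among upstream kinases 5 and 12, and among the serum response factor group 1 and 4.

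Transcripts of the upstream apparatus also went both ways. Of 23 kinase genes of the MAP kinase routes 5 were higher, 12 lower and 6 not called, with a median of -0.19, where the shares over all tested genes were 32.4% higher and 32.3% lower. With at least 50 counts in 3 libraries required, 8 of the 23 were higher and 10 lower. MAP2K2 rose from 114 ± 5.26 to 213 ± 12.4 CPM (0.90 ± 0.06), and MAP2K6 and MAP3K8 by 0.80 ± 0.10 and 0.43 ± 0.12. Genes of the ERK-activated RSK kinases fell, RPS6KA2 by 1.10 ± 0.07 and RPS6KA3 by 0.87 ± 0.11, as did the stress kinase gene MAPK14 by 0.71 ± 0.09. Of 6 genes for SRF and its cofactors 1 was higher and 4 lower, with a median of -0.33. ELK1 rose by 0.51 ± 0.09, while ELK4 fell from 125 ± 7.09 to 68.0 ± 3.16 CPM (-0.88 ± 0.06), MRTFB by 0.87 ± 0.07 and ELK3 by 0.38 ± 0.13. The call of ELK3 was lost without parental library 3 (edgeR adjusted p = 0.119), without Enz-R library 1 (edgeR adjusted p = 0.0619) and in thinned counts (edgeR adjusted p = 0.0682). These are transcript levels and carry no measure of kinase activity.

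Known AP-1 target genes were in part undetected. Of 18 listed genes 8 were below the count filter, among them the collagenase gene MMP1, which had 0 counts in all libraries. Of the 10 tested, 3 were higher, 2 lower and 5 not called, with a median of -0.01. Among all tested genes the shares were 32.4% higher and 32.3% lower. HMOX1 rose from 22.6 ± 5.71 to 72.9 ± 24.4 CPM (1.68 ± 0.19) and the growth factor gene HBEGF from 3.43 ± 0.68 to 6.96 ± 0.89 CPM (1.00 ± 0.17). VEGFA fell by 0.60 ± 0.09 on the log2 scale and the cyclin gene CCND1 by 0.34 ± 0.06.

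Heat shock genes, only some of which respond to handling of cells as immediate early genes do, also went both ways. Of 12 genes 6 were higher, 3 lower and 3 not called, with a median of 0.19. Over all tested genes 32.4% were higher and 32.3% lower. HSPE1 rose by 1.41 ± 0.13, HSPH1 by 0.70 ± 0.10 and DNAJB1 by 0.69 ± 0.09, while HSPA8 fell from 958 ± 100.1 to 442 ± 61.8 CPM (-1.12 ± 0.10). Handling at harvest is not recorded in the labels, and its part in the rise of the members was not tested.

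Within each group the members did not all vary together. Enz-R library 1 was the lowest of its group for FOS, FOSB, EGR1, JUN, JUNB and IER2, by 0.86 on the log2 scale below the group mean for FOSB, 0.51 for FOS and 0.48 for EGR1. The same library was the highest of its group for JUND, ATF3 and FOSL2. Among the parental libraries, FOS, JUNB, JUN and FOSB were highest in library 1 and EGR1 in library 3, and FOS, EGR1 and JUNB were lowest in library 2. JUND, ATF3 and FOSL2 were highest in library 1 of both groups, which is also the deepest of each group. The part of depth in this was not tested. With all libraries thinned to 15673404 counts the calls were again 8 higher and 1 lower. Over all 18252 genes then tested, 5892 were called higher and 5868 lower. Without Enz-R library 1 the log2 fold change of FOS was 1.51 and that of FOSB 1.96, both larger than with it.

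**Figure D5:**
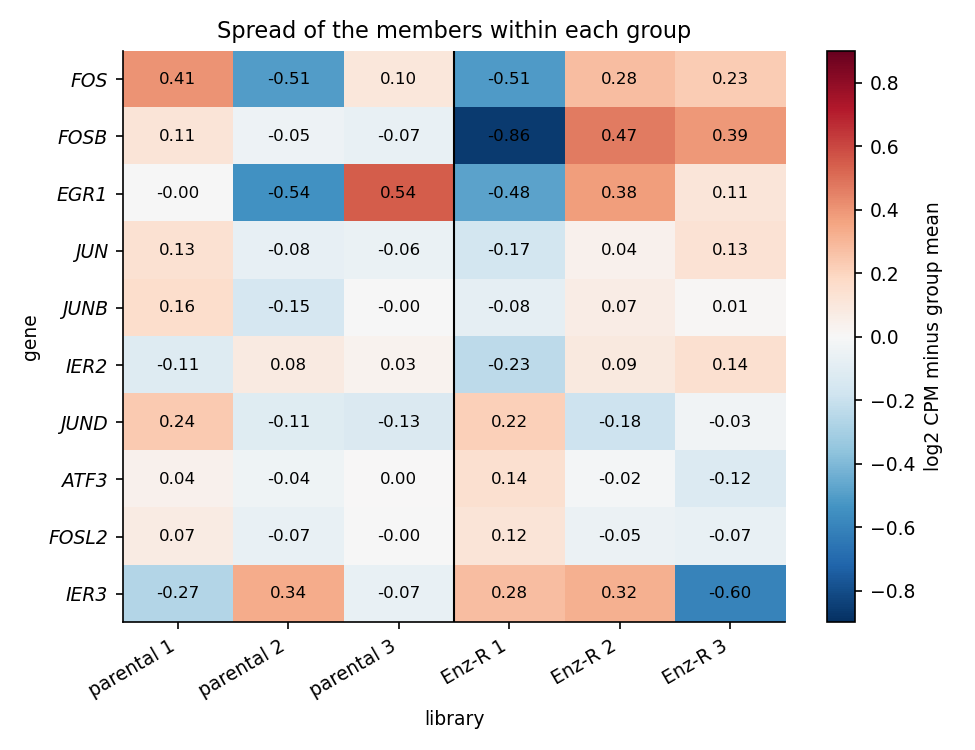
Log2 CPM of each member minus the mean of its group, by library, with blue below and red above the mean. In Enz-R library 1 the values of FOS, FOSB, EGR1, JUN, JUNB and IER2 are negative and those of JUND, ATF3 and FOSL2 positive.

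By likeness of profile, the 5 protein-coding genes nearest to FOS, with the members left out of the comparison, were PRSS22, ELF3, SLC51A, KLF6 and TBC1D3L. The measure was the root mean square difference of log2 CPM, each gene centred on its mean over the 6 libraries. It was taken over 9773 protein-coding genes that are not members and averaged 10 CPM or more. The differences ran from 0.185 for PRSS22, a secreted serine protease gene, to 0.272 for TBC1D3L. The epithelial transcription factor gene ELF3 went from 40.0 ± 4.44 to 89.6 ± 15.3 CPM and the zinc finger gene KLF6, which is itself an immediate early gene, from 17.3 ± 1.73 to 44.1 ± 5.37 CPM. TBC1D3L belongs to a family of near-identical copies, so its counts are uncertain.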

How the data were processed

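Total RNA was taken from C4-2 parental and C4-2 Enz-R cells and sequenced as 150 bp paired-end reads, per the labels' protocols. HISAT2 and the build GRCh38 are listed per the submitters' processing notes. Which program counted the reads, against which annotation and with what strandedness, is not given in the sources used here. The authors deposited raw counts per gene, with 889 unannotated loci beside the Ensembl genes. Positions and exon lengths are from GENCODE 29.

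Counts were compared between 3 and 3 libraries by edgeR 4.0.16 under R 4.3.3, with the filterByExpr filter, TMM factors, glmQLFit and glmQLFTest and no covariate, with Benjamini-Hochberg adjustment over 19029 genes and a threshold of 0.05. Each SE is the absolute log2 change over the root of F. DESeq2 1.42.0 and limma 3.58.1 (voom) were alternatives. Family shares used two-sided exact permutation tests. The members, lists and tests were chosen with earlier results of these data known. Named genes are the members and, of each list, up to 3 called risers and 3 called fallers. Those have the largest change among genes with groups that do not overlap and a mean of 5 CPM or more in the higher group. Also named are the 5 protein-coding genes nearest to FOS in profile, with the members left out of that comparison. The fit was tested on simulated counts with planted changes. Other steps used scipy 1.17.1 and pandas 2.3.3 under Python 3.11.15, and figures matplotlib 3.10.9. Library pairs within a group differed by more than counting error (chi-square per degree of freedom 4.30 to 10.1). One gene of the luminal marker list is not reported here.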

Additional observations from a re-analysis of the deposited data

How the results depend on the processing

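The members called were 8 higher and 1 lower, with 7 at least 2-fold higher, under each alternative: other scalings, filters, DESeq2, limma-voom, each library left out in turn and, added after the data were seen, thinned counts or mitochondrially encoded genes left out before scaling. Over the same alternatives, 5097 to 6475 genes of the whole table were called higher and 5049 to 7094 lower, out of 14087 to 39358 tested. The share of all tested genes called at least 2-fold higher, 11.0%, is given for the main settings only. IER3 was not tested where at least 50 counts in 3 libraries were required. Over the alternatives, the log2 fold change ranged from 1.07 to 1.51 for FOS and 1.39 to 1.96 for FOSB. It ranged from 1.66 to 2.16 for EGR1 and -0.62 to -0.49 for FOSL2. The replicate numbers did not pair the libraries, with correlations of same-numbered libraries of 0.049, -0.0081 and 0.011, and Enz-R library 2 correlated best with parental library 3. With the number as a replicate block, 6179 genes were higher and 6158 lower, against 6173 and 6150. IER3, never called, changed sign with total count scaling (-0.074), DESeq2 (-0.00306), thinned counts (-0.15) and without parental replicate 1 (-0.15), parental replicate 3 (-0.02), Enz-R replicate 1 (-0.12) or Enz-R replicate 2 (-0.11), and ranged from -0.15 to 0.26 over the libraries left out in turn. AP-1 partners called higher were 1 with at least 50 counts in 3 libraries or thinned counts, where fewer genes were tested, and upstream kinases called higher were 8 with at least 50 counts in 3 libraries, for which the cause was not tested. ELK3 and ATF4 lost their calls in some alternatives, ELK3 without parental replicate 3 (adjusted p = 0.119) or Enz-R replicate 1 (adjusted p = 0.0619) and in thinned counts (adjusted p = 0.0682), and ATF4 without Enz-R replicate 2 (adjusted p = 0.0553).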
